A study of Sus scrofa with 32 samples.

Results

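The genes described here encode 8 proteins that fibroblasts secrete or carry on their surface and that build or adjust the matrix around muscle fibres. They are VCAN (ENSSSCG00000014136), POSTN (ENSSSCG00000009361), SFRP2 (ENSSSCG00000009004), FAP (ENSSSCG00000015896), DCN (ENSSSCG00000000915), LUM (ENSSSCG00000000916), FBN1 (ENSSSCG00000004658) and SPARC (ENSSSCG00000017082). They were chosen by name, 8 of the 25322 gene entries counted, so that genes of a growing or remodelling matrix (VCAN, POSTN) could be set against genes of a mature one (DCN, LUM). VCAN and SFRP2 are also among the genes that the study itself listed on these same samples, so their differences here are not independent evidence.

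RNA was sequenced from the longissimus dorsi (LD, the loin) and the semimembranosus (S, in the ham) of 8 Pulawska (PUL) and 8 Polish Landrace (PL) pigs. The labels give all 16 pigs as gilts 180 days old. The study, however, fed the pigs to a set body weight and correlated expression with age at slaughter, so that age varied. They were kept at 1 test station with the same housing and feed, with both muscles of a pig sequenced as separate libraries. PUL is a local breed held as a genetic resource, while PL has been bred for lean meat. The study asked which transcripts differ between breeds that differ in meat texture and fat, so breed and shear force class cannot be told apart in these groups. It also reports a higher daily gain in PL. Growth rate, and age at slaughter where it followed growth, thus go with breed and cannot be told apart from it here.

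Versican, the product of VCAN, is a large chondroitin sulfate proteoglycan that binds hyaluronan and is abundant in loose, developing or healing matrix. Periostin (POSTN) and SPARC are matricellular proteins, which bind collagen and cells and rise during growth and repair, while decorin (DCN) and lumican (LUM) are small leucine-rich proteoglycans that sit on collagen fibrils and limit their thickness. Fibrillin-1 (FBN1) builds microfibrils, SFRP2 is a secreted modulator of Wnt signalling, and FAP is a serine protease on the surface of activated fibroblasts.

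Library totals ran from 8821273 to 24761853 counts and did not differ between the breeds (two-sided exact permutation test, p = 0.939 in LD and p = 0.466 in S, 8 pigs against 8). Levels below are CPM, counts scaled to a common library total, with TMM factors over all 32 libraries, so they can be compared within a gene across the 4 groups but not between genes, whose lengths were not used. Pigs carry the numbers of the labels. Some libraries stood apart. Hepatocyte markers summed to between 17.9 and 1001 CPM where the RNA came from PUL pigs 1 to 5. They summed to 65.2 CPM or less in PUL pigs 13, 16 and 17, and to 33.0 CPM or less in PL. The 1001 CPM was pig 5 in S alone, and the next highest was 106 CPM, in pig 4 in LD. Pig 1 in LD (17.9 CPM) and pigs 2 and 3 in S (26.7 and 17.9 CPM) lay within the PL range. These markers thus did not separate PUL pigs 1 to 5 as a group. Among S libraries, those of PUL pigs 1 to 5 had the lowest summed fibroblast markers, nearly all from the collagen genes COL3A1 and COL1A2. PL pig 14 had the highest levels of most of the 8 genes among PL pigs in LD and the lowest in S. Whether its 2 libraries carry the right muscle labels cannot be settled from these values, so that doubt attaches to its LD and S levels wherever they are used. Values that 1 of these libraries moved most are also given without it.

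All 8 genes had higher fitted levels in PL than in PUL in both muscles, and none of these differences passed the test across all genes. The median log2 fold change, PL over PUL, was 0.98 in LD (0.58 to 1.96) and 1.27 in S (0.64 to 1.85), whereas the median of all tested genes was 0.01 in LD and 0.02 in S. Of all tested genes, 50.8% had a fitted value above 0 in LD and 52.6% had one in S. The call required an adjusted p of at most 0.05 with a fold change of at least 1.3. By edgeR's quasi-likelihood test, 0 of the 8 genes and 0 of 10792 tested genes (0%) were called in LD, and 0 of the 8 and 0 of 10687 (0%) in S. At an unadjusted p under 0.05 were 4 of the 8 in LD (VCAN, POSTN, LUM and FBN1), against 7.15% of all genes, and 6 of the 8 in S (all but DCN and SPARC), against 11.7% of all genes. For none of the 8 were the ranges of the breeds apart, which was the case for 0.00927% of tested genes in LD and 0.0936% in S. edgeR's exact test and DESeq2 each called 2 of the 8 in S, VCAN and SFRP2, and none in LD. The study listed both genes for S from these same samples, with edgeR and DESeq2 among its methods. Their calls, and their place among the 6 of 8 above, thus repeat a known result. The exact test and DESeq2 also called more genes in all. The exact test called 57 of the 10687 tested genes in S and 13 of the 10792 in LD. DESeq2 called 103 in S and 19 in LD. In muscle, which is a mixture of cells, fewer fibroblasts and less RNA per fibroblast cannot be told apart.

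**Figure D1:**
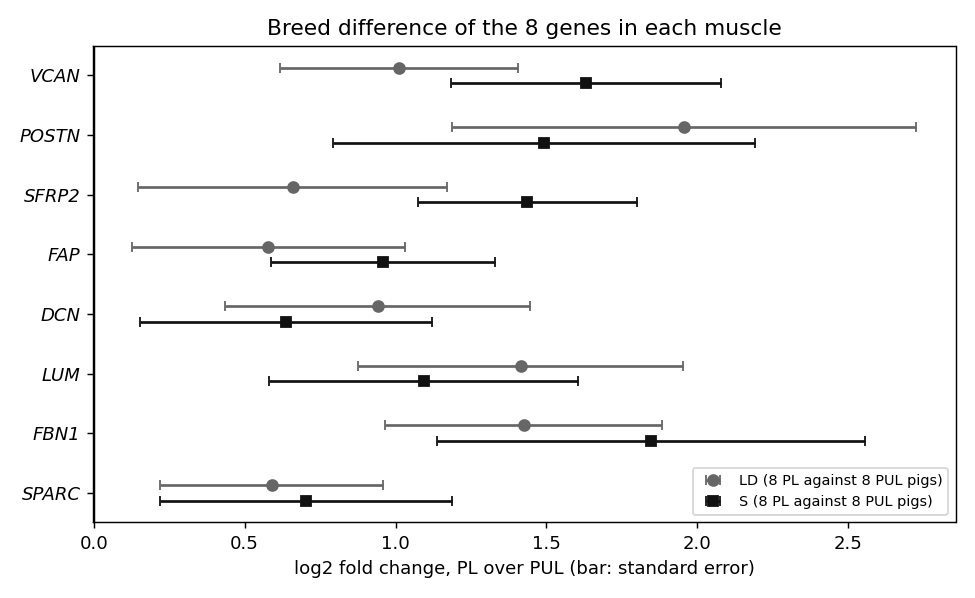
The x axis is the log2 fold change of PL over PUL and the y axis lists the 8 genes, with circles for LD and squares for S and bars for the standard error. All 16 points lie right of 0, from 0.58 for FAP in LD to 1.96 for POSTN in LD.

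VCAN was the gene of the growth-type pair with the clearer difference in S. In PUL, its level in S ran from 2.74 to 13.3 CPM (median 7.20, mean 7.07 ± 3.64 SD, n = 8). In PL it ran from 3.58 to 65.3 CPM (median 18.4, mean 22.0 ± 18.6 SD, n = 8). The ranges overlapped, but 6 of 8 PL pigs exceeded every PUL pig. The log2 fold change was 1.63 (SE 0.45, 95% interval 0.75 to 2.51, adjusted p = 0.212 by edgeR's quasi-likelihood test). For VCAN in S the adjusted p was 0.0487 with edgeR's exact test and 0.0304 with DESeq2. PL pig 8 held the highest value, and without it the log2 fold change was 1.16.

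In LD, VCAN ran from 2.58 to 9.41 CPM in PUL (median 4.75) and from 3.68 to 31.5 CPM in PL (median 8.53). Only 3 of 8 PL pigs exceeded every PUL pig. The fitted difference on the log2 scale was 1.01 (SE 0.39, adjusted p = 0.575, edgeR). It fell to 0.59 without PL pig 14, which had the highest value.

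POSTN, the periostin gene, had the widest range within a group. In LD of PUL it ran from 0.485 to 27.0 CPM (median 3.77), a 55.6-fold range, and in PL from 2.77 to 64.1 CPM (median 12.4). In S it ran from 1.17 to 37.3 CPM in PUL (median 4.54) and from 7.61 to 64.0 CPM in PL (median 32.6). The groups overlapped in both muscles, although 8 of 8 PL pigs in S and 7 of 8 in LD lay above the PUL median. The log2 fold changes were 1.96 in LD (SE 0.77, adjusted p = 0.583) and 1.49 in S (SE 0.70, adjusted p = 0.421), both by edgeR's quasi-likelihood test. Without PUL pig 17, whose LD library had the highest PUL value, the LD value was 2.82. It was 1.55 without PL pig 10, which had the highest PL value.

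Of the mature-matrix pair, DCN had the smaller fitted difference in both muscles. In LD it ran from 63.5 to 519.9 CPM in PUL (median 149.8) and from 118 to 1092 CPM in PL (median 266). In S it ran from 36.9 to 466 CPM in PUL (median 291) and from 118 to 957 CPM in PL (median 409.9). The breeds overlapped over most of their range in both muscles, with 2 of 8 PL pigs exceeding every PUL pig in each. The log2 fold changes were 0.94 in LD (SE 0.51, 95% interval -0.05 to 1.93, adjusted p = 0.733) and 0.64 in S (SE 0.48, 95% interval -0.31 to 1.58, adjusted p = 0.604), by edgeR. Without PL pig 14 the LD value was 0.55, and without PL pig 12 the S value was 0.33.

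LUM, the lumican gene, lay further from 0 than DCN in both muscles. In LD it ran from 13.3 to 112 CPM in PUL (median 28.3) and from 27.3 to 293 CPM in PL (median 76.7). In S it ran from 9.60 to 119 CPM in PUL (median 69.8) and from 23.4 to 336 CPM in PL (median 102). The log2 fold changes were 1.41 in LD (SE 0.54, adjusted p = 0.555) and 1.09 in S (SE 0.51, adjusted p = 0.421), by edgeR's quasi-likelihood test. The groups overlapped, with 2 of 8 PL pigs exceeding every PUL pig in LD and 3 of 8 in S. Without PL pig 14 the LD value was 1.07, and without PL pig 12 the S value was 0.71.

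SFRP2 separated the breeds in S better than any other of the 8 genes by the number of pigs. In S of PUL it ran from 3.69 to 11.2 CPM (median 6.86, mean 7.06 ± 2.78 SD, n = 8). In S of PL 7 of 8 pigs lay between 15.2 and 28.6 CPM, above every PUL pig, and PL pig 14 had 2.15 CPM, below every PUL pig. The log2 fold change was 1.44 (SE 0.36, 95% interval 0.72 to 2.15, adjusted p = 0.204 by edgeR's quasi-likelihood test). For SFRP2 in S the adjusted p was 0.0364 with edgeR's exact test and 0.0214 with DESeq2. Without PL pig 14, the PL pig below every PUL pig, the difference was 1.61 on the log2 scale, with an adjusted p of 0.0478 by the quasi-likelihood test. This was the 1 fit of 16, each leaving out a pig, that called SFRP2 in S. By the same test the adjusted p reached 0.343 without PL pig 10.

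In LD, SFRP2 showed no such separation. PUL pigs ran from 4.23 to 23.2 CPM (median 11.1) and PL pigs from 3.52 to 66.8 CPM (median 15.8), and the 2 lowest of all 16 pigs in LD were PL pigs 8 and 12. The log2 fold change was 0.66 (SE 0.51, adjusted p = 0.852, edgeR), and 0.10 without PL pig 14, which had the highest value.

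FAP, the fibroblast protease gene, ran in S from 2.27 to 15.1 CPM in PUL (median 8.51) and from 5.73 to 29.0 CPM in PL (median 15.7). In LD it ran from 2.94 to 23.0 CPM in PUL (median 7.51) and from 4.15 to 35.0 CPM in PL (median 11.8). The breeds overlapped in both muscles, with 4 of 8 PL pigs exceeding every PUL pig in S and 2 of 8 in LD. On the log2 scale the difference was 0.96 in S (SE 0.37, adjusted p = 0.347) and 0.58 in LD (SE 0.45, adjusted p = 0.853), by edgeR's quasi-likelihood test. The LD value was 0.25 without PL pig 14.

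FBN1, the fibrillin gene, was measured with few counts, from 3 to 216 per library. In S it ran from 0.161 to 3.14 CPM in PUL (median 1.71) and from 0.628 to 25.4 CPM in PL (median 3.14). In LD it ran from 0.629 to 1.62 CPM in PUL (median 1.09) and from 0.784 to 8.83 CPM in PL (median 2.25). In LD 5 of 8 PL pigs exceeded every PUL pig, and 3 lay within the PUL range. The fitted log2 difference was 1.42 in LD (SE 0.46, adjusted p = 0.52, edgeR), and its unadjusted p was the smallest of the 8 genes in that muscle. In S it was 1.85 (SE 0.71, adjusted p = 0.344, edgeR), and 0.90 without PL pig 8.

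SPARC ran in LD from 3.36 to 17.8 CPM in PUL (median 15.4) and from 4.22 to 34.9 CPM in PL (median 19.0). In S it ran from 3.70 to 24.3 CPM in PUL (median 11.0) and from 2.98 to 58.9 CPM in PL (median 18.4). On the log2 scale PL exceeded PUL by 0.59 in LD (SE 0.37, adjusted p = 0.789) and 0.70 in S (SE 0.48, adjusted p = 0.56), by edgeR's quasi-likelihood test. The S value was 0.30 without PL pig 14, whose library had the highest level.

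The SPARC entry also shared reads with a neighbouring identifier. Its estimated count was not a whole number in 31 of 32 libraries, but added to that of ENSSSCG00000017083 it was whole, within 0.015, in all 32. The SPARC entry held 19.6% to 36.6% of the sum (median 29.5%), so its level alone understates the reads assigned to the pair. The sum had a log2 fold change of 0.53 in LD (SE 0.33) and 0.75 in S (SE 0.43), close to that of SPARC alone. VCAN counts were not whole in 31 of 32 libraries either, and the entries that shared its reads are not given here. Values of VCAN and SPARC are thus uncertain to the extent that reads were divided among entries.

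**Figure D2:**
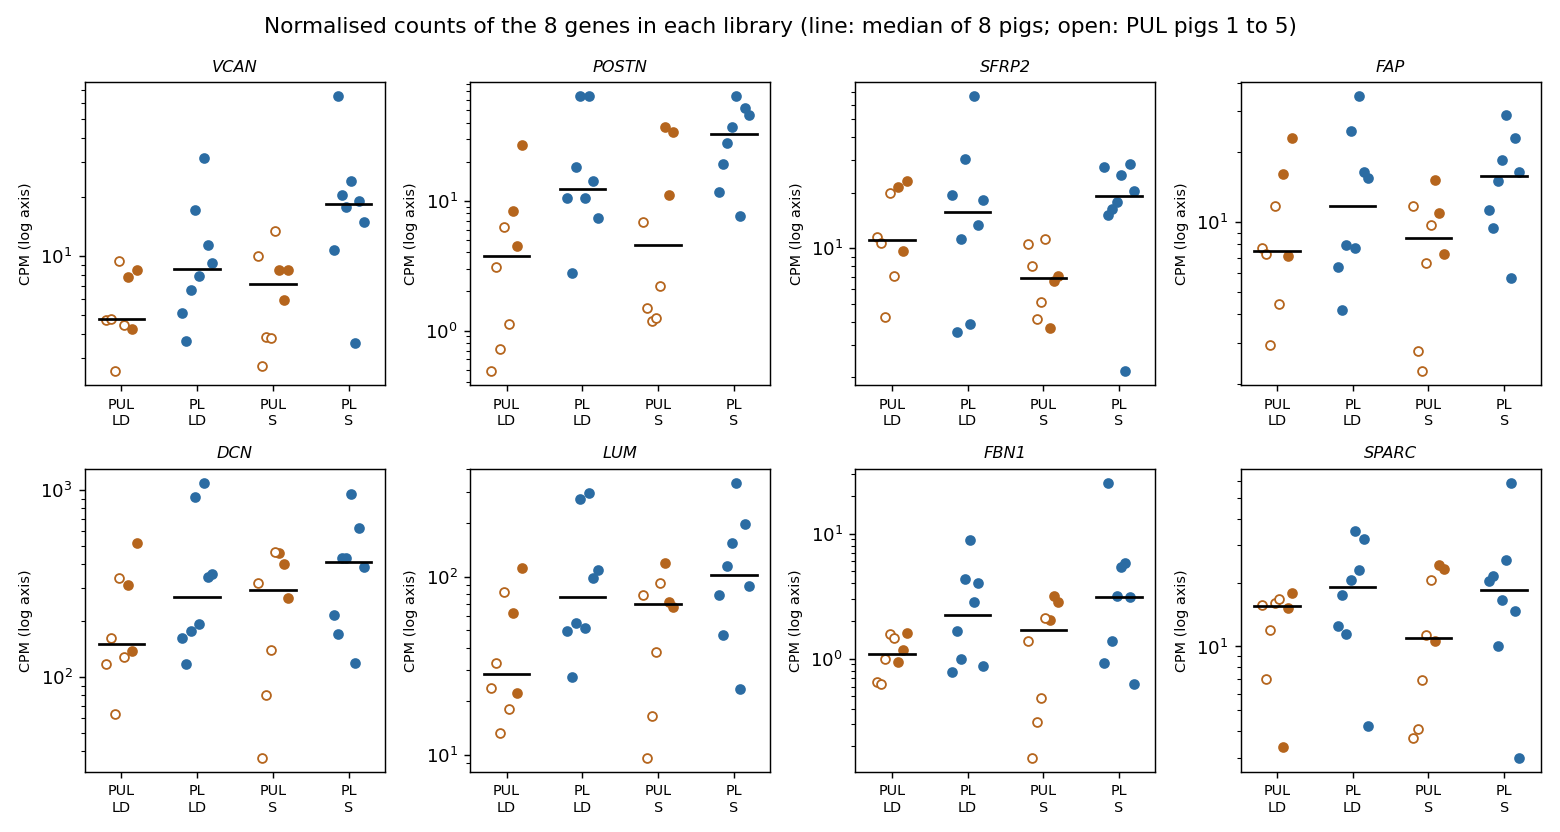
Each panel is a gene, with CPM on a log axis on the y axis and the 4 groups of breed and muscle on the x axis. Points are pigs, lines are medians of 8 pigs, and open points are PUL pigs 1 to 5, which lie lowest for POSTN in S (1.17 to 6.88 CPM).

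The PUL group in S was not uniform. POSTN lay between 1.17 and 6.88 CPM in PUL pigs 1 to 5 and between 11.2 and 37.3 CPM in PUL pigs 13, 16 and 17, with no overlap. The summed level of the fibroblast markers split in the same way, from 71.6 to 501 CPM in PUL pigs 1 to 5 and from 1263 to 1825 CPM in the other 3. That sum was nearly all COL3A1 and COL1A2, collagen genes that varied with POSTN over the libraries (r = 0.86 and 0.87). FAP in S overlapped, with 2.27 to 11.7 CPM in PUL pigs 1 to 5 and 7.30 to 15.1 CPM in the other 3. LUM overlapped too, with 9.60 to 92.1 and 67.8 to 119 CPM. DCN in S did not split by pig number. It was lowest in PUL pigs 2, 3 and 4 (36.9, 80.2 and 139 CPM), but 318 and 466 CPM in PUL pigs 1 and 5, against 265 to 459 CPM in PUL pigs 13, 16 and 17. For SFRP2 the pigs of lower number were not low, with 4.15 to 11.2 CPM in pigs 1 to 5 and 3.69 to 7.07 CPM in the other 3.

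When PUL pigs 1 to 5 were left out, a choice made after seeing the data, the breed differences in S fell apart into unequal values. SFRP2 and VCAN kept log2 fold changes of 1.72 and 1.53, while POSTN fell to 0.28, DCN to 0.17, SPARC to 0.13 and LUM to 0.61. FBN1 was 1.07 and FAP 0.54. PUL pigs 1 to 5 had the lowest POSTN of PUL in S, so leaving them out had to lower the POSTN difference there. In LD the values were 0.74 for VCAN, 0.85 for POSTN, 0.86 for LUM, 0.36 for DCN, 0.19 for SFRP2, 1.28 for FBN1 and 0.69 for SPARC, and FAP changed sign to -0.07. These fits set 3 PUL pigs against 8 PL pigs, and the lowest adjusted p of the 8 genes was 0.268 (SFRP2 in S, edgeR). With only pigs 13 to 18, 3 of each breed, SFRP2 in S was 1.55, VCAN 0.72, POSTN 0.37 and DCN 0.01. In LD the same 6 pigs gave 1.38 for VCAN, 1.39 for LUM, 1.15 for POSTN, 0.92 for DCN, 0.90 for SFRP2 and 0.57 for FAP. The labels tie the numbers to no batch, and the part of any batch in these values was not tested.

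The growth-type pair was next set against the mature pair within each library, as the mean log2 level of VCAN and POSTN minus that of DCN and LUM. This ratio barely depends on the scaling of the library, and it is given without a test because the genes were chosen with results known. It was higher in PL than in PUL by 0.35 in LD (SE 0.18, n = 8 per breed), with 7 of 8 PL pigs above the PUL median. In S it was higher in PL by 0.87 (SE 0.39), with 8 of 8 PL pigs above the PUL median. The ranges overlapped in both muscles. Without PUL pigs 1 to 5 the differences were 0.11 in LD and 0.56 in S, and without PL pig 8 the S value was 0.62. With a pseudocount of 2 in place of 0.5 the LD difference was 0.10 and the S difference 0.62.

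The genes of each pair were also set against each other, without a test. POSTN against VCAN was higher in PL by 1.25 in LD (SE 0.52) and by 0.83 in S (SE 0.69). Without PUL pigs 1 to 5 it was 0.08 in LD and -0.96 in S. Those pigs had been set apart by values that include low POSTN in S. A fall on leaving them out thus follows largely from that choice and is no separate result. Against DCN, POSTN was higher in PL by 1.24 in LD (SE 0.39) and by 1.44 in S (SE 0.53), with 8 of 8 PL pigs above the PUL median in both. Without PUL pigs 1 to 5 these values were 0.44 and 0.25, with the same limit. VCAN against DCN differed by -0.01 in LD (SE 0.21), that is, VCAN and DCN differed by about the same amount, and by 0.61 in S (SE 0.51). The S value was 0.19 without PL pig 8 and 1.21 without PUL pigs 1 to 5. In the mature pair, LUM against DCN was higher in PL by 0.53 in LD (SE 0.10), where 7 of 8 PL pigs exceeded every PUL pig. In S it was higher by 0.31 (SE 0.14), where 5 of 8 did. Without PUL pigs 1 to 5 the LUM values were 0.57 and 0.34. SFRP2 against DCN differed by -0.49 in LD (SE 0.29) and by 0.47 in S (SE 0.57), and the latter was 1.53 without PUL pigs 1 to 5. FAP against DCN differed by -0.28 in LD (SE 0.15) and by 0.23 in S (SE 0.25).

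**Figure D3:**
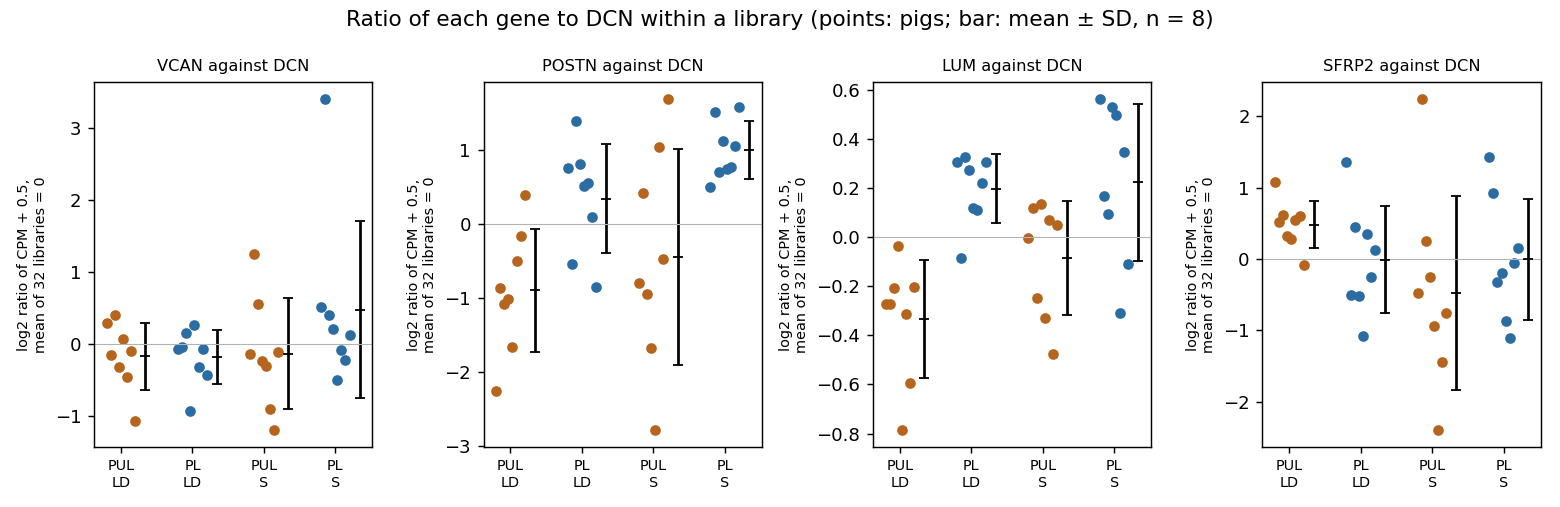
Each panel shows the log2 ratio of 1 gene to DCN within a library on the y axis, shifted so that the mean of the 32 libraries is 0, for the 4 groups on the x axis. Points are pigs and bars are the mean ± SD (n = 8). For LUM against DCN in LD 7 of 8 PL pigs lie above every PUL pig, with ranges that overlap (difference 0.53), whereas the means for VCAN against DCN in LD differ by -0.01.

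Muscles of the same pig were compared next, as S over LD with the pig as a block. In PUL, SFRP2 was the 1 gene of the 8 with an unadjusted p under 0.05 (8.45% of all 10771 tested genes). It was higher in LD than in S in 7 of 8 PUL pigs, with a log2 difference of -0.81 (SE 0.33, 95% interval -1.46 to -0.16, adjusted p = 0.558, edgeR's quasi-likelihood test). The other 7 genes in PUL lay between -0.23 for FAP and 0.79 for POSTN, which was 0.40 without PUL pig 1 and 1.19 without PUL pig 4. None of the 8 was called in PUL, where 7 of all tested genes (0.065%) were called.

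In PL, 7 of the 8 genes had a fitted S level above that in LD, and none had an unadjusted p under 0.05, against 1.35% of all 10680 tested genes. A fitted value above 0 was found for 50.5% of all genes in this comparison and for 50.5% in PUL. VCAN was higher in S in 7 of 8 PL pigs, with a log2 difference of 0.93 (SE 0.60), and POSTN in 6 of 8, with 0.99 (SE 0.65). SFRP2 was 0.42 (SE 0.66) and DCN 0.27 (SE 0.51). Without PL pig 8 VCAN was 0.53 and POSTN 0.69, and without PL pig 12 SFRP2 was 0.09 and DCN -0.03. The adjusted p from edgeR was 1 for each of these. 0 of all tested genes (0%) were called in PL.

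PL pig 14 had the largest fall from LD to S in VCAN, POSTN, SFRP2, FAP, DCN and LUM. Its SFRP2 level was 66.8 CPM in LD and 2.15 CPM in S, its VCAN level 31.5 and 3.58 CPM, and its FAP level 35.0 and 5.73 CPM. In the same order its DCN level was 1092 and 118 CPM, and its LUM level 293 and 23.4 CPM. The fibroblast markers summed to 4078 CPM in its LD library and 1080 CPM in its S library. SPARC and FBN1 did not follow, with 22.9 and 2.85 CPM in LD and 58.9 and 5.82 CPM in S. Without this pig the PL differences of S over LD were 1.35 for VCAN, 1.43 for POSTN, 0.87 for SFRP2 and 0.65 for DCN, with adjusted p-values of 0.407, 0.434, 0.547 and 0.594 (edgeR). It was not the 1 pig with higher values in LD, since in PL pig 10 DCN was at 914 and 433 CPM, LUM at 274 and 155 CPM, SFRP2 at 30.3 and 17.8 CPM and POSTN at 64.1 and 37.2 CPM in LD and S. PL pig 8 showed the opposite for VCAN, with 3.68 CPM in LD and 65.3 CPM in S, and for FBN1, with 1.65 and 25.4 CPM.

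**Figure D4:**
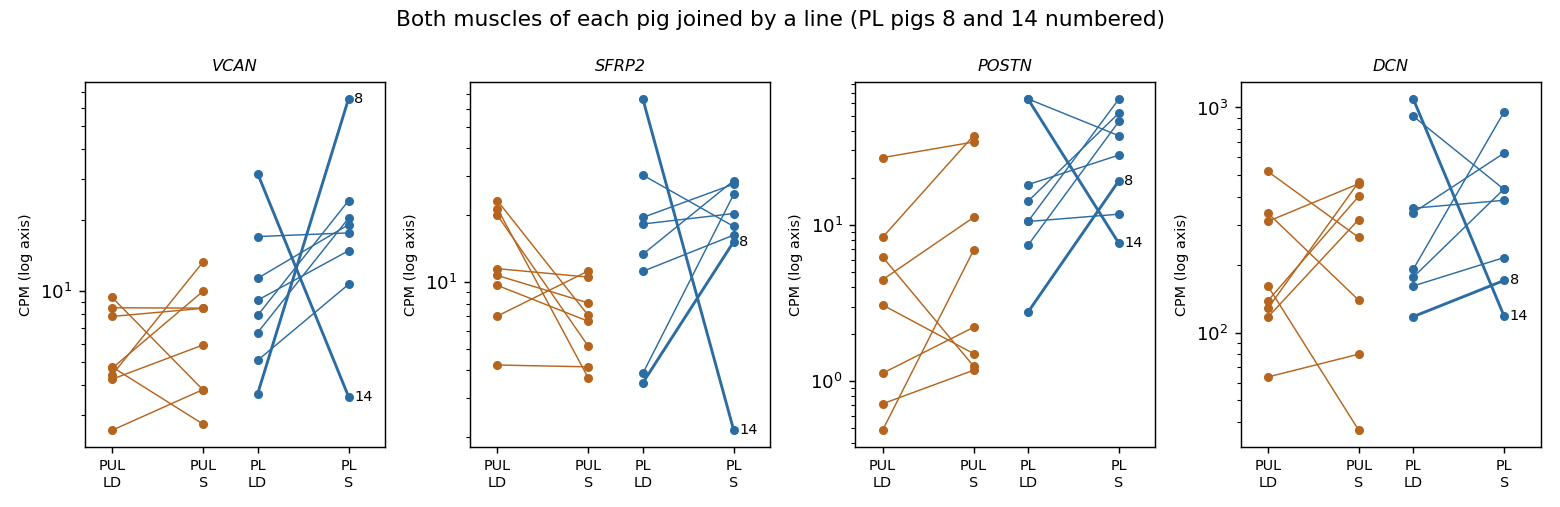
Each line joins the LD and S level of a pig, with CPM on a log axis on the y axis, for VCAN, SFRP2, POSTN and DCN, and PL pigs 8 and 14 are drawn thicker and numbered. SFRP2 falls from LD to S in 7 of 8 PUL pigs, and in PL pig 14 from 66.8 to 2.15 CPM.

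The breed differences of LD and S were compared by the interaction of breed and muscle, fitted to the 32 libraries with a block for each pig. A value above 0 was found for 7 of the 8 genes and for 51.8% of all genes. None of the 8 genes had an unadjusted p under 0.05, against 2.54% of 11563 tested genes, and 0 of all genes (0%) were called by the quasi-likelihood test. The value was largest for SFRP2, at 1.23 (SE 0.79, 95% interval -0.32 to 2.78), followed by VCAN at 0.70 (SE 0.70, 95% interval -0.68 to 2.07) and FAP at 0.59 (SE 0.55). The intervals are wide, so a larger SFRP2 or VCAN difference in S than in LD was not detectable here. Without PL pig 14 the interaction was 1.68 for SFRP2 and 1.12 for VCAN, without PL pig 12 it was 0.90 for SFRP2, and without PL pig 8 it was 0.30 for VCAN. DCN was at 0.06 (SE 0.74) and LUM at -0.13 (SE 0.79).

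Whether a pig high for a gene in 1 muscle was high in the other was examined over the 16 pigs after removal of the breed means. Pearson's r between LD and S was -0.50 for VCAN, -0.49 for SFRP2, 0.33 for POSTN, 0.04 for DCN, 0.01 for LUM, 0.18 for FAP and 0.41 for FBN1, and Spearman's rho for these ran from -0.31 to 0.49. SPARC had the highest value, r = 0.58 (Spearman's rho = 0.58, permutation p = 0.029 and 0.0249 over 16 pigs, adjusted p = 0.232 and 0.199 over the 8 genes). None of the 8 passed the adjustment by either measure. The negative values of VCAN and SFRP2 rest on few pigs, since without the 2 pigs farthest from the median in LD, PL pigs 8 and 14, they became 0.19 and -0.19.

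Within a muscle, the growth-type and mature genes varied together from pig to pig. In LD, over 16 pigs with breed means removed, all 6 pairs of VCAN, POSTN, DCN and LUM had r between 0.80 and 0.99 and rho between 0.75 and 0.96, with adjusted permutation p-values of at most 0.00214 over 12 relations. In S, DCN and LUM had r = 0.97 (rho = 0.95, permutation p = 1e-05, the smallest that 100000 resamples can give). POSTN had r = 0.72 with DCN (rho = 0.74) and 0.73 with LUM (rho = 0.76), with adjusted permutation p-values of 0.00561 and 0.00292 for r. VCAN had r = 0.56 with DCN (rho = 0.66) and 0.57 with LUM (rho = 0.64), with adjusted permutation p-values of 0.0251 and 0.0261 for r. With POSTN it had r = 0.46 (rho = 0.53), with adjusted permutation p-values of 0.0524 for r and 0.0486 for rho. Without the 2 pigs farthest from the median of VCAN in S, PL pigs 8 and 14, r became 0.89 with DCN, 0.87 with LUM and 0.56 with POSTN. The values of a library share its scaling and its content of fibroblast RNA. The 3 pigs of each breed numbered 13 to 18 are too few for a correlation of their own.

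Over all 32 libraries with the group means removed, the 8 genes fell into a tight set and others, as a description. DCN, LUM and FAP had r between 0.95 and 0.98 with each other, and POSTN 0.79 to 0.80 and VCAN 0.72 to 0.73 with these 3. SFRP2 had 0.65 to 0.72 with them. SPARC had r between -0.01 and 0.09 with the same 3, and FBN1 0.22 to 0.28, while FBN1 and SPARC had 0.65 with each other. Libraries of 1 pig are not independent, so no p is given.

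**Figure D5:**
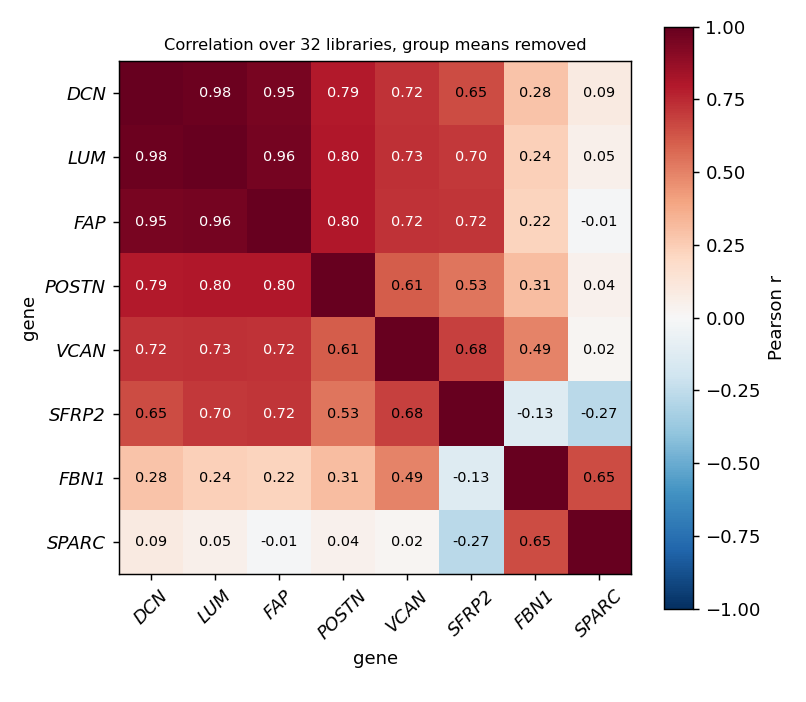
Cells give Pearson's r of log2 levels over 32 libraries between the gene of the row and the gene of the column, after subtraction of the mean of each group, with colour from -1 (blue) to 1 (red). DCN, LUM and FAP form a block of 0.95 to 0.98, and SPARC lies near 0 with them.

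Of 11562 genes compared over the 32 libraries in the same way, those most like DCN were LUM (r = 0.98), TFPI2 (0.97) and GLT8D2 (0.96). Those most like POSTN were ENSSSCG00000028873 (0.88), COL1A2 (0.87), which encodes a chain of type I collagen, and COL14A1 (0.86), which encodes a collagen that associates with fibrils. For VCAN they were SRI (0.92), FAM114A1 (0.87) and ENSSSCG00000027449 (0.87). For SFRP2 they were SDC2 (0.86), a cell-surface heparan sulfate proteoglycan, ENSSSCG00000005453 (0.85) and RAB8B (0.84).

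Other genes of the same matrix were followed through 7 lists of 75 genes, of which 64 had an entry. In LD 43 could be tested, 33 above 0 (76.7%, against 50.8% of all genes), and in S 46, 35 above 0 (76.1%, against 52.6%). None was called in either muscle by edgeR's quasi-likelihood test. With an unadjusted p under 0.05 were 4 in LD (9.30% of those tested, against 7.15% of all genes) and 5 in S (10.9%, against 11.7%), each of them higher in PL.

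Of 5 further small leucine-rich proteoglycans tested, 4 lay above 0 in each muscle, with a median of 1.25 in LD and 0.70 in S. ASPN, the asporin gene, was at 1.51 in LD (SE 0.49) and 1.28 in S (SE 0.43). BGN, the biglycan gene, was at 1.28 in LD and 0.70 in S, and FMOD, the fibromodulin gene, at 1.25 and 0.93. PODN was at -0.04 in LD and -0.03 in S. The adjusted p of each was at least 0.283 by edgeR.

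Among partners of versican and large proteoglycans, 4 of 5 tested genes lay above 0 in LD (median 0.16) and 3 of 5 in S (median 0.19). The smallest p in each direction belonged to CD44, a hyaluronan receptor, at 0.57 and HSPG2, the perlecan gene, at -0.45 in LD, and to HSPG2 at 0.92 and FBLN2 at -0.13 in S. Of the ADAMTS proteases that cleave versican, 2 of 4 lay above 0 in LD, with ADAMTS1 at 0.93 and ADAMTS15 at -0.17, and 4 of 5 in S, with ADAMTS20 at 1.17 and ADAMTS4 at -0.37. Of microfibril and elastic fibre genes, 7 of 9 lay above 0 in LD, with EFEMP2 at 0.47 and LTBP3 at -0.29, and 8 of 9 in S, with LTBP1 at 0.52 and LTBP3 at -0.02.

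Of other matricellular genes, 8 of 10 lay above 0 in LD, with TGFBI at 0.68, and 8 of 12 in S, with THBS1, the thrombospondin-1 gene, at 1.43 (SE 0.45). THBS2 lay below 0 in both, at -0.93 (SE 0.79) and -1.03 (SE 0.64). Of secreted Wnt modulators other than SFRP2, 4 of 4 lay above 0 in LD, with DKK3 at 0.92, and 2 of 4 in S, with FRZB at 0.76 (SE 0.23) and SFRP5 at -0.20. Of TGF-beta ligands and receptors, 4 of 6 lay above 0 in LD, with TGFB3 at 0.43 and TGFB2 at -0.13, and 6 of 6 in S, with TGFB2 at 0.56 (SE 0.19).

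Between muscles, 10 of 44 tested list genes had an unadjusted p under 0.05 and were higher in S in PUL, and 1 was lower (25.0% in all, against 8.45% of all genes), again with none called. Of the genes with the smallest p in each list, the higher were BGN (0.88), HAPLN3 (0.55), LOXL1 (0.79), TNXB (0.87), DKK3 (1.10) and TGFB3 (0.51). The lower were HSPG2 (-0.26), ADAMTS20 (-1.43), EMILIN1 (-0.16), THBS4 (-0.67) and TGFB2 (-0.46). In PL, 3 of 46 were higher and none lower at that level (6.52%, against 1.35%). The smallest p belonged upward to ASPN (0.85), HSPG2 (0.76), ADAMTS15 (0.19), ELN (0.84), THBS1 (1.15), FRZB (0.58) and BMP1 (0.42), and downward to ADAMTS1 (-0.41), EFEMP2 (-0.20), SMOC1 (-0.18) and SFRP5 (-0.06). In the interaction 2 of 46 had an unadjusted p under 0.05 (4.35%, against 2.54%), ADAMTS20 (1.55) and TGFB2 (0.73), both with a larger PL over PUL value in S. The others with the smallest p in their list were ASPN (0.18) and OMD (-0.19), HSPG2 (1.01) and HAPLN3 (-0.27), ADAMTS4 (-1.19), ELN (0.59) and EFEMP2 (-0.37), THBS4 (0.54) and CYR61 (-0.37), FRZB (0.03) and SFRP1 (-0.41), and TGFB3 (-0.20).

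The summed fibroblast markers had higher medians in PL than in PUL in both muscles. Of 10 listed, 6 had an entry and none was at 0 throughout, and the median of their summed level in LD was 318 CPM for PUL (178 to 1706) and 936 CPM for PL (395 to 4078). In S the medians were 492 and 1442 CPM (71.6 to 1825 and 827 to 4133). The fibrillar collagen genes COL3A1 and COL1A2 made up nearly all of it, and all 4 tested genes of the list lay above 0 in both muscles. The other 2 tested were low, with LD means of 1.08 and 1.58 CPM for TCF4 in PUL and PL, and of 5.92 and 6.43 CPM for DPP4. TCF4 was matched by symbol alone, and whether it marks fibroblasts here was not tested. PDGFRA, at most 1.08 CPM in any library, and DDR2 were too low to be tested. The part of fibroblast content in the differences of the 8 genes was not tested.

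Other cell types were followed in the same way. Endothelial markers had medians of 92.6 and 97.4 CPM in LD for PUL and PL, and 91.4 and 96.3 CPM in S. Smooth muscle and pericyte markers had 124 and 188 CPM in LD and 175 and 203 CPM in S, and CNN1 had the smallest p of any marker in LD, at 1.38 (SE 0.26, adjusted p = 0.179, edgeR). The highest group median was 13.6 CPM for macrophage and leukocyte markers, 2.63 CPM for satellite cell markers and 6.29 CPM for adipocyte markers. Tenocyte markers were at or near 0, with medians of at most 0.25 CPM, and MKX was at 0 in all PUL libraries. ACTA1, the 1 listed gene of the muscle fibre with an entry, had medians from 71582 to 94889 CPM.

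Red blood cell markers had medians of 139 and 375 CPM in LD and 64.4 and 341 CPM in S for PUL and PL. Proliferation markers had 2.23 and 5.85 CPM in LD and 3.36 and 7.53 CPM in S. Hepatocyte markers ran to 1001 CPM in S of PUL (pig 5, group median 44.5) and 33.0 CPM in S of PL (median 19.2), with ALB at -7.37 in S. Their part in the values of the 8 genes was not tested.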

How the data were processed

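Libraries depleted of ribosomal RNA were sequenced in single reads from LD and S of 16 pigs. Per the study's methods and processing notes, reads were handled with CASAVA 1.8.2, checked with FastQC, trimmed with Flexbar and assigned with RSEM and Bowtie 2 on Sscrofa10.2. Each deposited gene value is an expected count from RSEM, for which the authors divided reads of several possible origins among entries. They were not normalised for depth.

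Rounded expected counts were fitted in edgeR 4.0.16 and limma 3.58.1 (R 4.3.3). Genes kept by filterByExpr were fitted with TMM factors and tested by the quasi-likelihood test with Benjamini-Hochberg adjustment, the breeds within each muscle (no covariate), and the muscles and the interaction with the pig as a block. Calls needed an adjusted p of at most 0.05 and a fold change of at least 1.3. Both limits are in the study's methods, which also required that more than 1 statistical method agreed, whereas a call here rests on 1 test. All log2 fold changes come from these fits. Ratios and correlations used log2(CPM + 0.5). Standard errors of fitted values were computed back from the log2 fold change and the F statistic of the test. Intervals are 95%, use the normal quantile 1.96 and cover the fitted error only. They are thus narrower than the F distribution of the test would give. The scripts were tested on simulated data. Libraries of LD and S with the same pig number in the labels come from 1 animal, and their deviations from the group means had r from -0.52 to 0.69, over 0.1 in 11 of 16 pigs. Replicate numbers shared between breeds belong to different animals. In LD such pairs had r from -0.30 to 0.55, over 0.1 in 6 of 8. In S they had r from -0.31 to 0.20, over 0.1 in 2 of 8. The pairing of a pig thus rests on the labels, not on these values.

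Symbols were paired with 11804 of 25322 gene entries, and 99 of 134 list genes had one. The members and lists were chosen with earlier results of these data known. All 8 members are named in every comparison, and of each list the genes called or, where none was called, the gene with the smallest p in each direction. For VCAN, SFRP2, POSTN and DCN the 3 genes with the highest r are named. No isoform values are given, since isoform entries were not paired with genes, and no coordinates or sequences are given, since no genome of this build was used here. Alternatives were the exact test, DESeq2 1.42.0, other scaling and filters, each pig left out, and, chosen after seeing the data, fits and ratios without PUL pigs 1 to 5, gene-to-DCN ratios without each pig, fits with pigs 13 to 18 only, and with SPARC summed with ENSSSCG00000017083.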

Additional observations from a re-analysis of the deposited data

Results flagged for a closer look

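In 36 groups of 8 libraries, 7 held a library whose gap to its nearest neighbour was large for the range of the group (Dixon's criterion at 95%). Chance flags about 1 in 20 groups only where values are normally distributed. Gene levels entered as CPM without a log, and the groups share libraries, so 7 of 36 cannot be set against that rate. VCAN in S of PL stood at 65.3 CPM in pig 8, with 24.2 CPM next, in the library with the lowest total of all 32 (8821273 counts). FBN1 was at 25.4 CPM in the same library, with 5.82 CPM next, and its ratio of VCAN and POSTN to DCN and LUM was the highest of PL in S, at -1.33 on the log2 scale. SFRP2 in LD of PL stood at 66.8 CPM in pig 14, with 30.3 CPM next, and SPARC in S of PL at 58.9 CPM in the same pig, with 25.5 CPM next. FBN1 in LD of PL stood at 8.83 CPM in pig 12, with 4.33 CPM next. POSTN in LD of PUL stood at 27.0 CPM in pig 17, with 8.33 CPM next.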

How the results depend on the processing

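The 8 genes kept a fitted value above 0 in both muscles under every alternative but 1, FAP in LD without PUL pigs 1 to 5 (-0.0733). How many genes were called depended on the test. In LD the exact test called 13 genes, DESeq2 19, both 13, the fit without a filter 4, and 1 fit of both muscles 6, with 0 of the 8 among them. In S the exact test called 57, DESeq2 103, both 52, RLE factors 1, no filter 4, and 1 fit of both muscles 70. Of the 8 genes, the exact test, DESeq2 and both together called 2 in S. Leaving out 1 pig at a time gave 0 to 1 genes in LD, 0 to 1 in S and 0 to 1 of the 8 in S (SFRP2 without PL pig 14). Leaving out PUL pigs 1 to 5, or keeping pigs 13 to 18, gave 1 gene in each muscle. For the interaction DESeq2 called 1 gene, and for the muscles of PL 2. For the muscles of PUL DESeq2 called 109, no filter 25, a minimum of 10 counts per library 3, and leaving out 1 pig 3 to 15. The cause of these differences was not tested.

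With the replicate number as a block between breeds, which pairs different animals, 0 of the 8 genes and 0 genes in all were called in either muscle. Without the block of the pig, the interaction turned to -0.43 for POSTN and -0.29 for DCN, the muscle difference of PUL to 0.0297 for SPARC, and that of PL to -0.12 for SFRP2, -0.00287 for DCN and 0.13 for SPARC. With library size alone, LUM turned to 0.12 in the interaction and SPARC to 0.0946 in PL, and with the summed SPARC entry SPARC turned to 0.0784 in PL. Leaving out 1 pig at a time, the interaction ran from -0.47 to 0.28 for LUM, -0.20 to 0.65 for POSTN, -0.25 to 0.44 for DCN, -0.19 to 0.44 for FBN1 and -0.14 to 0.35 for SPARC. The muscle difference of PUL ran from -0.35 to 0.14 for SPARC, -0.0456 to 0.52 for DCN and -0.0679 to 0.42 for FBN1, and that of PL from -0.0456 to 0.57 for FBN1, -0.21 to 0.14 for SPARC, -0.0326 to 0.65 for DCN and -0.0188 to 0.73 for LUM. Each of these lay within 1 standard error of 0 in the main fit. FBN1 had the fewest counts, down to 3 in a library, so its values are the least precise.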
